A study of Mus musculus with 2 samples.

Results

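Interstitial stromal cells are the fibroblast-like cells that lie between the seminiferous tubules of the testis. They were picked from single-cell RNA libraries of whole mouse testis by a rule on their own transcripts, and 178 of 38095 cell barcodes met it. The rule took barcodes with at most 20% of UMIs (unique molecular identifiers, the tags that count RNA molecules) from mitochondrial genes. Summed UMIs of 7 stromal genes, Tcf21, Pdgfra, Dcn, Col1a1, Col1a2, Lum and Igf1, had to reach 3 and 0.3% of the barcode's UMIs. They also had to equal or exceed those of 6 contractile genes used to mark peritubular myoid cells, Acta2, Myh11, Tagln, Myl9, Actg2 and Des. Barcodes with 5 or more UMIs of the Leydig cell genes Insl3, Star and Cyp17a1 were left out. The barcodes chosen are called members here.

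The series holds 1 library from Prm2 -/- and 1 from Prm2 +/- mice, and no library without a Prm2 mutation was analysed here. Prm2 encodes protamine 2, a protein of spermatids that packs sperm DNA. Per the labels' protocols, tubules were freed mechanically, digested with collagenase, washed to deplete Leydig cells and dispersed with Accutase, and 15000 cells were loaded for each library on the droplet platform of 10x Genomics, which tags the 3' ends of mRNAs. The labels give no strain, age or number of mice. With 1 library per genotype there is no replicate check and no test. Every interval below is an exact 95% interval that covers counting error only, and 2-fold is a rule of size.

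Interstitial fibroblasts build the loose connective tissue around vessels, Leydig cells and tubules. They secrete fibrillar collagens and small proteoglycans, and they carry the platelet-derived growth factor receptor alpha. Tcf21 marks a mesenchymal population of the mouse testis interstitium that can give rise to other somatic cells there.

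The Prm2 -/- library gave 106 members among 22885 barcodes, a share of 0.463% (0.379 to 0.560%), and the Prm2 +/- library gave 72 among 15210, a share of 0.473% (0.371 to 0.596%). The 2 shares lay within each other's intervals. Both libraries hold more barcodes than the 15000 cells loaded, so not every barcode can be a separate loaded cell. The shares are therefore shares of barcodes. By a rule with the contractile and stromal genes exchanged, 80 barcodes of the Prm2 -/- library and 2 of the Prm2 +/- library were of the peritubular myoid kind. The Leydig rule alone (5 or more UMIs of its genes) found 274 Prm2 -/- and 216 Prm2 +/- barcodes. The protocol isolates tubules and depletes Leydig cells, and its part in these shares was not tested.

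Members were shallow. They held 180122 UMIs in the Prm2 -/- library, with 501 as the lowest, 1378.5 as the median and 6178 as the highest number per member. In the Prm2 +/- library they held 120742 UMIs, with 636, 1667 and 3637 per member. Whole libraries held 123588822 and 71364845 UMIs, with medians of 3716 and 1882.5 per barcode, for Prm2 -/- and Prm2 +/-. A total of 88 barcode sequences occurred in both libraries, and 0 of them were members in both.

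Summed rule genes came to 3, 10 and 41 UMIs (lowest, median, highest) in Prm2 -/- members and to 3, 14 and 64 in Prm2 +/- members. At the edge of the rule, 4 Prm2 -/- and 2 Prm2 +/- members had exactly 3 such UMIs, and 3 and 1 other barcodes met the rest of the rule with 2. Between 0.3 and 0.4% of UMIs lay 15 Prm2 -/- and 4 Prm2 +/- members, and between 0.2 and 0.3% lay 28 and 6 barcodes that were not taken. At least 3 different rule genes were seen in 72 of 106 Prm2 -/- members (67.9%) and in 51 of 72 Prm2 +/- members (70.8%), and 0 members held all 7.

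**Figure D1:**
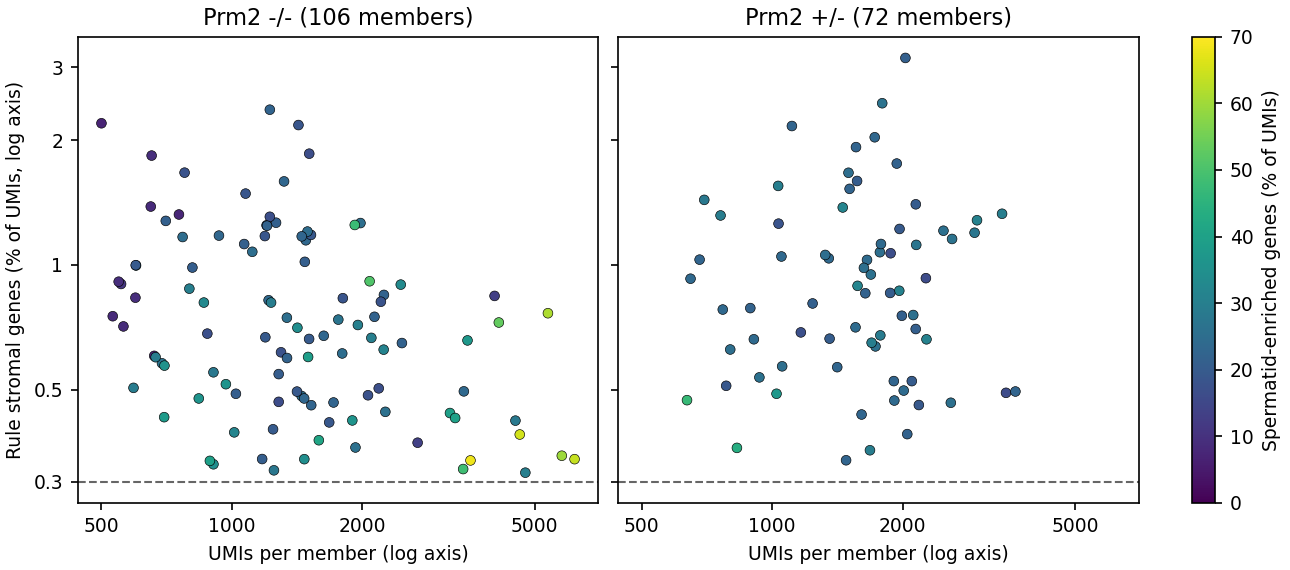
Share of UMIs from the 7 rule genes (percent, log axis) against UMIs per member (log axis), with the 106 Prm2 -/- members left and the 72 Prm2 +/- members right. Each point is a member, its colour gives the percent of UMIs from spermatid-enriched genes, and the dashed line is the 0.3% threshold. The members over 50% spermatid-enriched, all 7 in the Prm2 -/- panel, all lie above the median of 1378.5 UMIs.

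Spermatid-enriched genes gave UMIs in every member. Genes were called spermatid-enriched where their CPM (UMIs of a gene per 1000000 UMIs) was higher in spermatid-marker barcodes than in members of both libraries. Spermatid-marker barcodes have at least 5% of UMIs from a list of spermatid genes that leaves out Prm2. The 11077 spermatid-enriched genes gave 31.8% of all UMIs of Prm2 -/- members and 24.4% of those of Prm2 +/- members, against 49.2% and 52.3% in all other barcodes of these libraries. Per member the share ran over 6.99, 23.2 and 68.3% (lowest, median, highest) in Prm2 -/- and over 15.9, 23.9 and 47.2% in Prm2 +/- members. The medians were close, while 20 Prm2 -/- and 3 Prm2 +/- members lay above 35%. Those 20 had a median of 2634.5 UMIs, against 1284 in the other 86 Prm2 -/- members. Scrublet, a doublet caller, marked 20 Prm2 -/- members (18.9%) and 0 Prm2 +/- members, and 11 of the 20 were among those above 35%. Of all scored barcodes it marked 15.7% in the Prm2 -/- and 3.07% in the Prm2 +/- library. The marks thus differed between the whole libraries too.

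Prm1, which codes for protamine 1, reached 12358 CPM in Prm2 -/- members and 11015 CPM in Prm2 +/- members, below its 50909.8 and 63588 CPM in spermatid-marker barcodes. Prm2 itself had 1 UMI in Prm2 -/- members and 601 UMIs in Prm2 +/- members, a ratio with its counting interval of -9.81 on the log2 scale (-15.11 to -7.32). With every member thinned to 812 UMIs, which left out 21 Prm2 -/- and 8 Prm2 +/- members, 0% and 98.4% held a Prm2 UMI (0 of 85 members allows up to 4.25%). Thinned spermatid-marker barcodes gave 0.7% and 99.8%. Prm2 stood at 4978 CPM in Prm2 +/- members, below its 27749 CPM in spermatid-marker barcodes of that library, and the altered part of the gene is not given in the labels.

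The proteoglycan gene Dcn (decorin, which coats collagen fibrils) carried most of the rule. Its UMIs came to 812 in Prm2 -/- members and 906 in Prm2 +/- members, or 4508 and 7504 CPM, with a UMI in 96.2% and 100% of them. All other barcodes held 3.36 CPM in the Prm2 -/- library and 2.33 CPM in the Prm2 +/- library. Dcn (ENSMUSG00000019929) lies at chr10:97479609-97518143 on the plus strand (mm10). Since the values of the 7 rule genes chose the members, these and the following ones are given as a description. For Dcn the log2 ratio of Prm2 -/- over Prm2 +/- was -0.74 (-0.87 to -0.60).

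The rule also took both chains of type I collagen. Col1a2, the alpha 2 chain of type I collagen, stood at 933 CPM in Prm2 -/- members and 952 CPM in Prm2 +/- members (log2 ratio -0.03, -0.38 to 0.32). Col1a1, the alpha 1 chain (chr11:94936224-94953042, plus strand), stood at 539 CPM (97 UMIs) in Prm2 -/- members and 282 CPM (34 UMIs) in Prm2 +/- members, a log2 ratio of 0.94 (0.36 to 1.54). Both genes took part in the choice of members, so nothing is read from these ratios.

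The other rule genes code for a growth factor, a receptor, a regulator and a proteoglycan. Pdgfra, the growth factor receptor, stood at 316 and 422 CPM in Prm2 -/- and Prm2 +/- members, with a UMI in 36.8% and 43.1%. Igf1, insulin-like growth factor 1, stood at 549.6 CPM in Prm2 -/- and 456 CPM in Prm2 +/- members. The transcription factor gene Tcf21 had 23 UMIs in Prm2 -/- members and 18 in Prm2 +/- members, and Lum, the proteoglycan lumican, had 11 and 6. The intervals of all 4 ratios included 0. In 14 of the 19 Tcf21-positive Prm2 -/- members and in 5 of the 14 Tcf21-positive Prm2 +/- members a UMI of Cyp26b1 was also seen. Of members without a Tcf21 UMI, 26 of 87 in the Prm2 -/- and 28 of 58 in the Prm2 +/- library held one, so the order was opposite in the 2 libraries.

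Outside the rule, fibroblast transcripts were far higher in members than in other barcodes of both libraries. Of 3342 genes with at least 20 UMIs over all members, 409 (12.2%) were at least 10-fold higher in members than in all other barcodes of each library. A list of 22 further stromal markers had 17 with enough UMIs, and all 17 were among them. These genes come from the same barcodes that the rule picked, so the folds are descriptive.

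The 20 genes with the highest fold, taking the lower of the 2 libraries, all stood at least 159.9-fold above other barcodes. Adamts5, an aggrecan-cleaving protease, led them with 894 CPM in Prm2 -/- and 1002 CPM in Prm2 +/- members, against 1.04 and 0.323 CPM elsewhere. Gsn, which codes for the actin-severing protein gelsolin, was the most abundant with 4158 CPM in Prm2 -/- and 4688 CPM in Prm2 +/- members. Mgp, matrix Gla protein, an inhibitor of calcification, stood at 1443 CPM in Prm2 -/- and 2278 CPM in Prm2 +/- members. Cyp26b1, which breaks down retinoic acid, stood at 399.7 CPM in Prm2 -/- and 696 CPM in Prm2 +/- members.

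Matrix genes among the 20 were Col3a1, the chain of type III collagen, Ltbp4, which binds latent TGF-beta, Bgn (biglycan), Htra3, a serine protease, and Fgl2, a fibrinogen-like protein. Secreted or membrane proteins were Rarres2 (the chemoattractant chemerin), Igfbp6, which binds insulin-like growth factors, Serping1 (the C1 inhibitor of complement), Clec3b (tetranectin) and Ifitm3, an interferon-induced membrane protein. Id3 and Ebf1 code for regulators of transcription, Fhl2 for a LIM-domain protein and S100a6 for a calcium-binding protein. Nrk, a protein kinase gene, and the noncoding RNA gene Meg3 completed them. Thinned to 812 UMIs, Gsn was seen in 76.5% of Prm2 -/- and 84.4% of Prm2 +/- members, and in 0.2% and 0% of spermatid-marker barcodes.

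**Figure D2:**
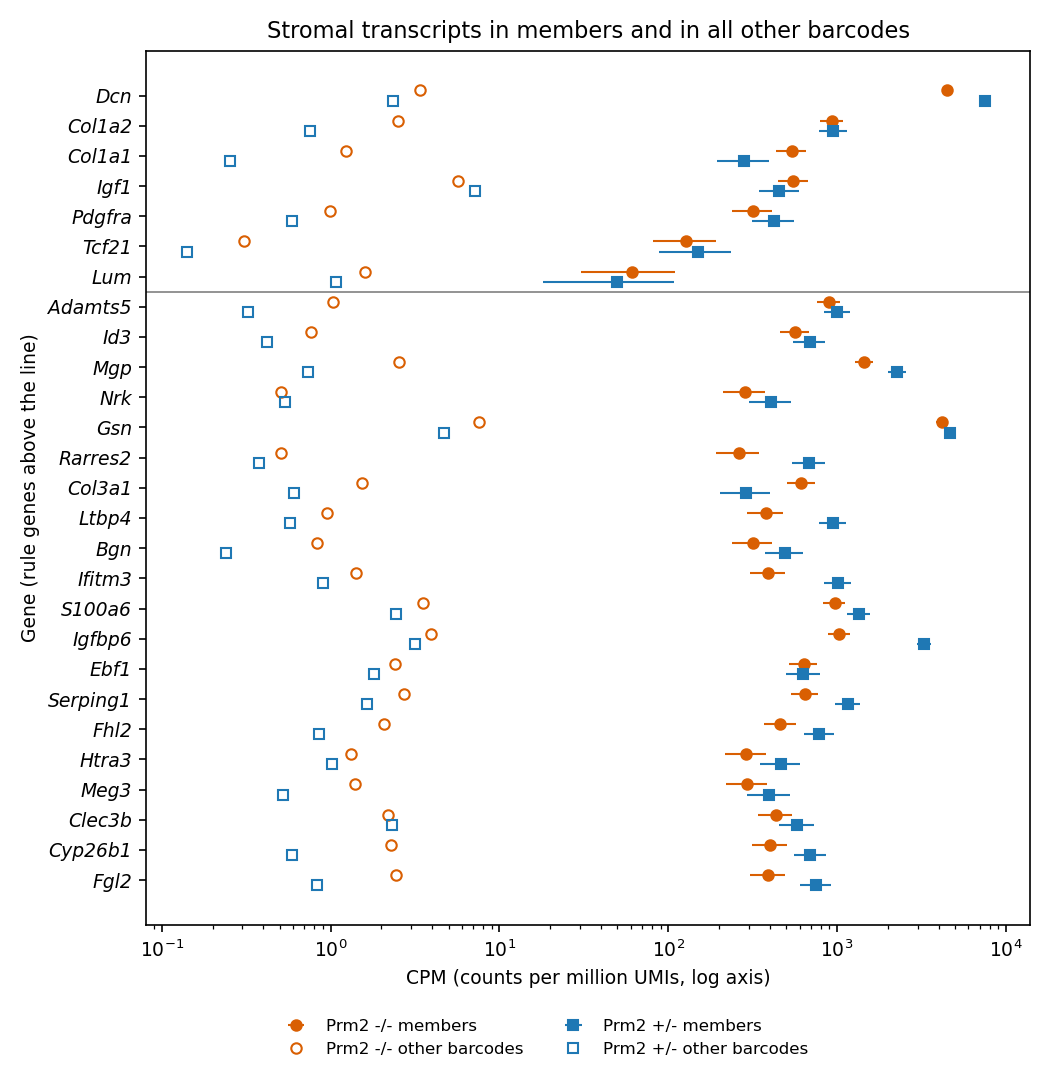
CPM (log axis) of the 7 rule genes, above the line, and of the 20 genes outside the rule with the highest fold, in Prm2 -/- (circles) and Prm2 +/- (squares) members, filled, and in all other barcodes, open. Bars are exact Poisson intervals. Dcn stands at 4508 and 7504 CPM in members and at 3.36 and 2.33 CPM elsewhere.

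Not all of these genes were higher in members than in the 80 Prm2 -/- barcodes of the myoid rule. Fgl2 (858 CPM there), Cyp26b1 (764) and Bgn (355) stood above their levels in Prm2 -/- members, at 389, 399.7 and 316 CPM. Gsn (114 CPM), Dcn (188) and Igfbp6 (201) stood well below, and Clec3b and Nrk had 0 UMIs in the myoid barcodes. The Prm2 +/- library had too few myoid barcodes for the same comparison. Contractile genes outside the rule summed to 816 CPM in Prm2 -/- members and 1466 CPM in Prm2 +/- members, against 6282 CPM in the Prm2 -/- myoid barcodes.

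Markers of other cell types were at 0 in part. Of 10 Leydig cell markers outside the rule, Cyp11a1, Hsd3b1 and Hsd17b3, enzymes of steroid synthesis, had 0 UMIs in members. The other 7 had UMIs, and the list summed to 899 CPM in Prm2 -/- and 1367 CPM in Prm2 +/- members, against 299 and 316 CPM in other barcodes. The 12 macrophage markers summed to 22.2 CPM in Prm2 -/- and 33.1 CPM in Prm2 +/- members, with 8 of them at 0, Csf1r and Adgre1 included. The 13 endothelial markers summed to 155 CPM in Prm2 -/- and 91.1 CPM in Prm2 +/- members, against 29.6 and 28.9 CPM in other barcodes. Kdr, Tie1 and Cldn5 were among the 7 at 0, while the cadherin gene Cdh5 had 8 UMIs in Prm2 -/- and 4 in Prm2 +/- members. Pericyte markers stood at 77.7 CPM in Prm2 -/- and 133 CPM in Prm2 +/- members, and lymphoid markers at 27.8 and 16.6 CPM. Mesothelial markers summed to 22.2 CPM in Prm2 -/- members with 6 of 7 at 0, and duct epithelium markers to 55.5 and 33.1 CPM with 8 of 10 at 0. Sertoli cell markers stood higher in Prm2 -/- members, at 1127 CPM against 663 CPM in Prm2 +/- members, while Amh and Fshr were at 0. They were also higher in the other barcodes of the Prm2 -/- library (387 CPM) than in those of the Prm2 +/- library (201 CPM).

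The comparison of Prm2 -/- with Prm2 +/- members covered 431 genes with at least 100 UMIs over the members of both libraries. Of these, 28 (6.5%) had a 2-fold or larger excess in Prm2 -/- members and 22 (5.1%) a 2-fold or larger deficit, with a median log2 ratio of 0.00. Of the 28 higher genes 25 were spermatid-enriched, and of the 22 lower genes 1 was, Prm2. The 171 spermatid-enriched genes had a median log2 ratio of 0.42 and the other 260 genes one of -0.34. With Scrublet's calls removed the spermatid-enriched median was -0.01, and without members above 35% spermatid-enriched UMIs it was -0.11. In those 2 settings, 10 of 325 and 10 of 314 genes were at least 2-fold higher. The second setting drops members by their share of these same genes, 20 Prm2 -/- and 3 Prm2 +/- members. A lower spermatid-enriched median follows from that choice, so it is no check of the ratio.

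Among the 72 genes at least 10-fold higher in members than in other barcodes of both libraries, 64 had a ratio below 0 and 8 above 0. The 72 include 5 rule genes, 2 above 0 and 3 below 0, whose values chose the members. The median of the 72 was -0.60, against 0.00 over all 431 genes and -0.34 over those not spermatid-enriched. At least 2-fold lower were 14 genes (19.4%, against 5.1% of all 431). Col3a1 alone (1.39%, against 6.5%) was at least 2-fold higher. The median stayed below 0 in the 16 other settings run, between -0.66 and -0.31. The share of member UMIs from spermatid-enriched genes, 31.8% in Prm2 -/- and 24.4% in Prm2 +/- members, enters every CPM. With these genes taken out of the total each ratio was 0.15 higher, the median of the 72 genes was -0.45, and 12 were at least 2-fold lower and 2 higher.

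**Figure D3:**
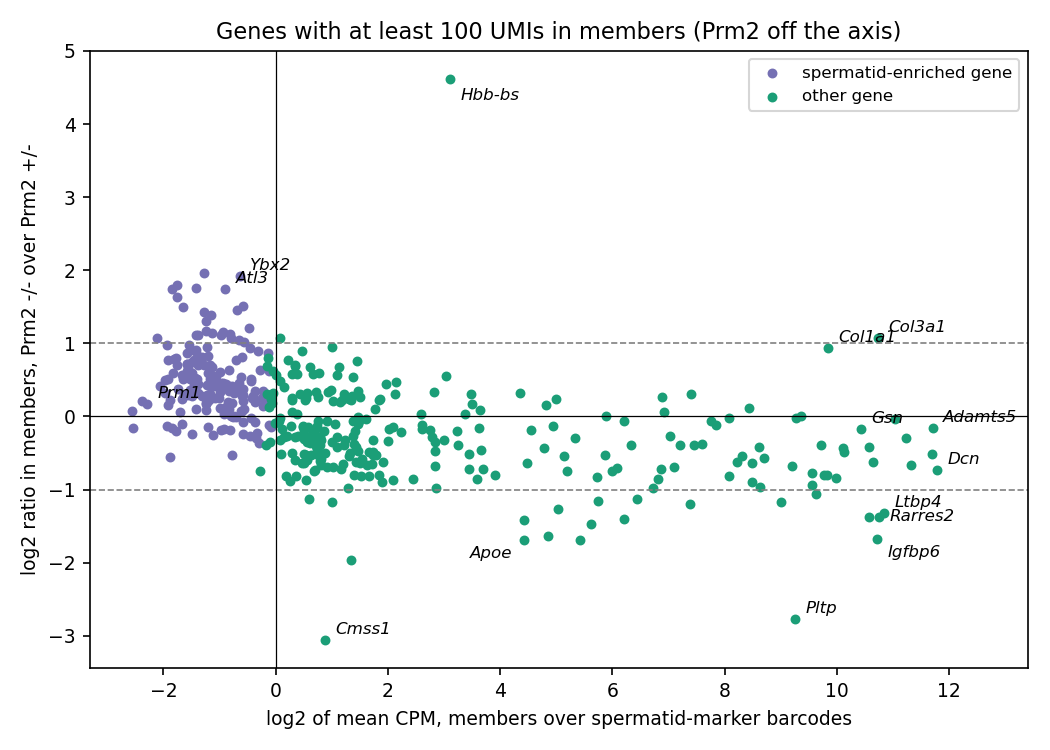
Log2 ratio of CPM, Prm2 -/- over Prm2 +/- members, against log2 of members over spermatid-marker barcodes (mean CPM of the 2 libraries), for genes with at least 100 UMIs. Prm2 (-9.81) is off the axis and Hbb-bs is drawn at its lower bound of 4.62. Purple marks spermatid-enriched genes, green all others, and dashed lines mark 2-fold. Purple points lie mostly above 0, and at the far right, where stromal genes lie, most points are below 0 and Col3a1 and Col1a1 stand near 1.

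Among collagen genes outside the rule, Col3a1 stood higher in Prm2 -/- members. Col3a1 (chr1:45311538-45349706, plus strand, mm10) had 110 UMIs in Prm2 -/- members and 35 in Prm2 +/- members, or 611 and 289.9 CPM. A UMI was seen in 52.8% of Prm2 -/- and 36.1% of Prm2 +/- members, and after thinning in 37.6% and 21.9%. The log2 ratio was 1.08 (0.51 to 1.67), between 0.86 and 1.38 in 13 other settings and past 2-fold in 11 of them. Col3a1 was also higher in other barcodes of the Prm2 -/- library, at 1.53 CPM against 0.604 CPM in the Prm2 +/- library (log2 1.34). Col3a1-positive members held Col1a1 too in 34 of 56 cases in the Prm2 -/- library and in 9 of 26 in the Prm2 +/- library. Col3a1-negative members held it in 20 of 50 cases in the Prm2 -/- and in 15 of 46 in the Prm2 +/- library. The 18 listed collagen genes summed to 2421 CPM in Prm2 -/- and 2046 CPM in Prm2 +/- members (log2 0.24, 0.01 to 0.47). Without Col3a1 the other 17 summed to 1809.9 CPM in Prm2 -/- and 1756 CPM in Prm2 +/- members (log2 0.04, -0.21 to 0.30). Col4a1 and Col4a4, chains of basement membrane collagen, stood at -0.30 and 0.31, with 0 inside both intervals.

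Genes of collagen folding summed to almost the same level in Prm2 -/- (2521 CPM) and Prm2 +/- members (2534 CPM). Serpinh1, the collagen chaperone, stood at 305 CPM in Prm2 -/- and 199 CPM in Prm2 +/- members with an interval that included 0, and Sparc, a collagen-binding matrix protein, at 1399 and 1399.7 CPM. Basement membrane genes, led by the laminin gene Lama2 (605 and 729 CPM), summed to 1560.0 CPM in Prm2 -/- and 1946 CPM in Prm2 +/- members, a log2 ratio of -0.32 (-0.57 to -0.06). That interval would include 0 with spermatid-enriched genes out of the total.

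Proteoglycan and elastic fibre genes stood lower in Prm2 -/- members. Their summed ratios were near the median of -0.60 of the 72 genes at least 10-fold higher in members than in other barcodes. The small leucine-rich proteoglycans outside the rule summed to 772 CPM in Prm2 -/- and 1267 CPM in Prm2 +/- members (log2 -0.72, -1.06 to -0.37), with Bgn at 316 and 489 and Ogn (osteoglycin) at 278 and 431 CPM. Elastic fibre and matricellular genes summed to 4014 CPM in Prm2 -/- and 5739.5 CPM in Prm2 +/- members (log2 -0.52, -0.67 to -0.36). Of the 3 elastic fibre and matricellular genes with at least 100 UMIs, 2 were at least 2-fold lower. The share was 5.1% over all 431 genes and 19.4% over those 72 genes. Ltbp4 stood at 378 CPM in Prm2 -/- members and 944 CPM in Prm2 +/- members (-1.32), and Sparcl1, an anti-adhesive relative of Sparc, at 261 and 547 CPM (-1.07). Matrix proteases and their inhibitors summed to 2265 CPM in Prm2 -/- and 2559 CPM in Prm2 +/- members with 0 inside the interval of the ratio, Timp2 at 633 and 729 CPM and Adamts5 at a log2 ratio of -0.16 (-0.51 to 0.19).

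Listed genes of the insulin-like growth factor system, which leave out the rule gene Igf1, summed lower in Prm2 -/- members, mainly through Igfbp6. The 15 listed genes summed to 2809 CPM in Prm2 -/- and 5392 CPM in Prm2 +/- members (log2 -0.94, -1.11 to -0.77). Igfbp6 (chr15:102144362-102149511, plus strand, mm10), whose product prefers IGF2, had 185 UMIs in Prm2 -/- and 395 in Prm2 +/- members, or 1027 and 3271 CPM, a log2 ratio of -1.67 (-1.93 to -1.42). Per member it ran over 0, 1 and 8 UMIs (lowest, median, highest) in Prm2 -/- and over 0, 5 and 17 UMIs in Prm2 +/- members, so the ranges overlapped while the medians stood apart. After thinning it was seen in 45.9% and 82.8% of members. Igfbp7 had a log2 ratio of -0.54 (-0.87 to -0.21), Igfbp4 of -0.11 and Igf1 of 0.27, the last 2 with 0 inside their intervals. All 13 other settings kept Igfbp6 at least 2-fold lower, between -1.72 and -1.37.

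Igfbp6 and Col3a1 are stromal genes outside the rule with a ratio below and above 0. Col1a2 is a rule gene set beside them, and nothing is read from its ratio. The 250 bases before the transcription starts of these genes are given here, from RefSeq on GRCm38.p6 (the assembly called mm10). A promoter was found in the RefSeq table for 6 of 9 genes looked up. Capitals mark each match to CCAAT, which reads ATTGG on the opposite strand, and each match to TATAAA, which reads TTTATA on the opposite strand. None of these matches overlap. The Igfbp6 window is chr15:102143936-102144185, the Col3a1 window chr1:45311288-45311537 and the Col1a2 window chr6:4505368-4505617, all on the plus strand. RefSeq places the Igfbp6 start upstream of the GENCODE start given above. The Col1a2 window lies inside the GENCODE gene (chr6:4504814-4541544), whose start is upstream of the RefSeq start.

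Igfbp6: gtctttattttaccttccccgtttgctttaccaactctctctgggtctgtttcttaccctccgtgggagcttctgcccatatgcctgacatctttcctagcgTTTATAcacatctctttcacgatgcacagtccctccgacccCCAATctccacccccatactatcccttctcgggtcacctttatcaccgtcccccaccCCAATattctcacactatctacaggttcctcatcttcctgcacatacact

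Col3a1: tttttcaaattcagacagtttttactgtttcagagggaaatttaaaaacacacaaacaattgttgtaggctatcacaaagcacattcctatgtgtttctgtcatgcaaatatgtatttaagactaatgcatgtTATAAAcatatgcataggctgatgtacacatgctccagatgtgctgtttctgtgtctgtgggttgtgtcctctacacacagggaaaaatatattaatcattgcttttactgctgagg

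Col1a2: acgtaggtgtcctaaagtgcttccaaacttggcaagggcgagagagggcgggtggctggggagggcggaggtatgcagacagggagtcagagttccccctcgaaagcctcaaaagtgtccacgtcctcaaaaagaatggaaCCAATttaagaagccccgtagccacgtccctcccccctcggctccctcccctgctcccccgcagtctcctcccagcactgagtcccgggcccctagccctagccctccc

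CCAAT starts at -107 and -50 from the Igfbp6 start and TTTATA at -148. Col3a1 has TATAAA at -117 and no CCAAT in this window, and Col1a2 has CCAAT at -109. In all 32851 windows of this length in the table, 33.8% hold CCAAT or ATTGG and 12.4% hold TATAAA or TTTATA. The matches describe letters only.

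Pltp and Apoe, whose products carry lipids in lipoproteins, were among the 10 lowest named ratios. Pltp, phospholipid transfer protein, stood at 117 CPM (21 UMIs) in Prm2 -/- members and 795 CPM (96 UMIs) in Prm2 +/- members, a log2 ratio of -2.77 (-3.53 to -2.08). It was seen in 15.1% of Prm2 -/- and 61.1% of Prm2 +/- members, and after thinning in 11.8% and 40.6%. Apoe, apolipoprotein E, stood at 1177 and 3785 CPM (-1.69, -1.93 to -1.45), and per member it ran over 0, 1 and 15 UMIs in Prm2 -/- and 0, 3 and 27 UMIs in Prm2 +/- members. Apoe was also lower elsewhere in the Prm2 -/- library, at 61.0 CPM in other barcodes against 101 CPM in the Prm2 +/- library, and thinned spermatid-marker barcodes held a UMI in 8.80% and 7.80%. Pltp stood at 1.43 and 2.32 CPM in other barcodes.

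**Figure D4:**
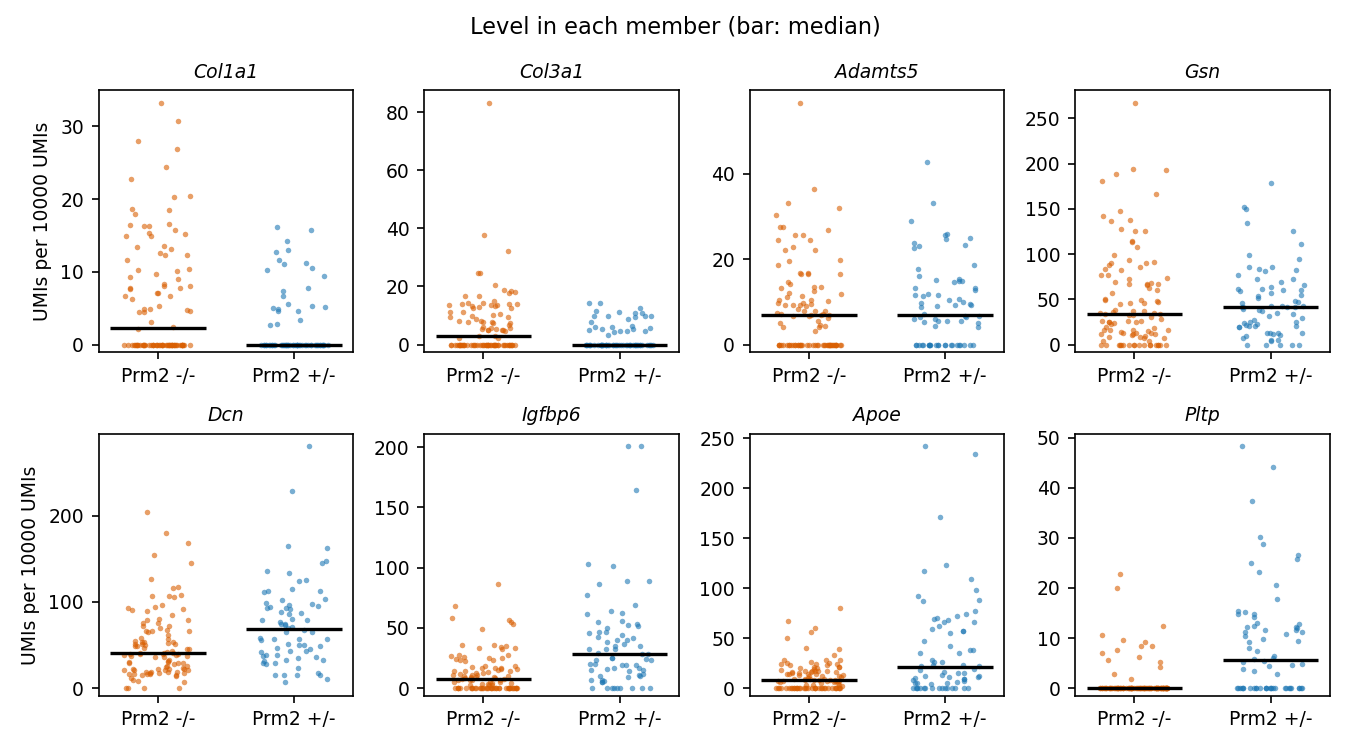
UMIs per 10000 UMIs of 8 genes in each member, with the 106 Prm2 -/- members left and the 72 Prm2 +/- members right in every panel and the median as a bar. Values overlap between the libraries for all 8 genes. The median of Igfbp6 is 7.17 in Prm2 -/- and 28.3 in Prm2 +/- members, and that of Col3a1 is 2.95 and 0.

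Other genes at least 2-fold lower in Prm2 -/- members ranged over several of the lists. Rarres2 stood at 261 CPM in Prm2 -/- and 679 CPM in Prm2 +/- members (-1.38) and Ifitm3 at 389 and 1010.4 CPM (-1.38). Genes of the interferon response and MHC class I summed to 1277 CPM in Prm2 -/- and 2617 CPM in Prm2 +/- members (-1.04, -1.29 to -0.79), but B2m, the light chain of MHC class I, stood at 155 and 157 CPM. Anxa2, a membrane-binding annexin, stood at 233 CPM in Prm2 -/- and 754 CPM in Prm2 +/- members (-1.69) and Nenf, a secreted neurotrophic protein, at 183 and 571 CPM (-1.64).

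Cst3 (cystatin C, a protease inhibitor) and the glutathione transferases Gstm1 and Gstm2 had log2 ratios of -1.40, -1.47 and -1.42. The oxidative stress list as a whole summed to 9410.3 CPM in Prm2 -/- and 13492 CPM in Prm2 +/- members, with 3 of the 8 genes with at least 100 UMIs at least 2-fold lower and 0 higher, against 5.1% lower and 6.5% higher of all 431 genes. These 3 were Gstm1, Gstm2 and the ferritin light chain gene Ftl1. Other barcodes held 4821 CPM of the list in the Prm2 -/- and 5679 CPM in the Prm2 +/- library. Leydig-rule barcodes held more Gstm1 than members did, at 4822 and 8004 CPM in the Prm2 -/- and Prm2 +/- libraries. Cst3 stood at 2729.8 and 2108 CPM in those barcodes, against 1282 CPM in Prm2 -/- and 3387 CPM in Prm2 +/- members. Leydig cell markers outside the rule, led by Akr1cl and Aldh1a1, summed lower in Prm2 -/- than in Prm2 +/- members (log2 -0.60, -0.93 to -0.28), and their part in these ratios was not tested.

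Ribosomal protein mRNAs were lower as a group. All 37 listed genes had at least 100 UMIs, 36 had a log2 ratio below 0, and the median was -0.59. The median was 0.00 over all 431 genes and -0.34 over the 260 that were not spermatid-enriched. The sum was 34471 CPM in Prm2 -/- and 49444 CPM in Prm2 +/- members. Other barcodes also held less in the Prm2 -/- library (20099 CPM) than in the Prm2 +/- library (24275 CPM), and so did spermatid-marker barcodes (16487 against 19339.9 CPM) and Leydig-rule barcodes (35695 against 41450.1 CPM). Rps27a had a ratio of -0.97 and Rpl23 one of -0.26. The median was -0.42 without members above 35% spermatid-enriched UMIs. Mitochondrially encoded transcripts summed to 23356 CPM in Prm2 -/- and 20200.1 CPM in Prm2 +/- members, with mt-Nd1 at 0.68. Early genes that tissue dissociation induces summed to 10932 CPM in Prm2 -/- and 12108 CPM in Prm2 +/- members, with Fos at 1083 and 1880.0 CPM and Jund at 1055 and 729 CPM.

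Signalling and regulatory lists ranged from lower sums to sums with 0 inside the interval. Steroid and retinoid response genes summed to 1804 CPM in Prm2 -/- and 3056 CPM in Prm2 +/- members (-0.76, -0.98 to -0.54), with Cyp26b1 at -0.80, Aldh1a1, a retinoic acid synthesis enzyme, at -0.70 and Rarres2 the gene past 2-fold. TGF-beta and BMP genes stood at 1909.8 CPM in Prm2 -/- and 2377 CPM in Prm2 +/- members (-0.32, -0.55 to -0.08), with Id3 at -0.29. The PDGF, FGF and EGF genes stood at 905 CPM in Prm2 -/- and 828 CPM in Prm2 +/- members, hedgehog and Wnt genes at 727 and 853 CPM, and chemokines and cytokines at 727 and 878 CPM, each with 0 inside the interval of its ratio. Complement genes, led by Serping1 (644 CPM in Prm2 -/- and 1159.5 CPM in Prm2 +/- members), stood at 1582 and 2062 CPM (-0.38, -0.63 to -0.13). With spermatid-enriched genes out of the total, the intervals of the TGF-beta and BMP list and of the complement list would include 0.

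Mesenchymal transcription factor genes summed to 5208 CPM in Prm2 -/- and 5367 CPM in Prm2 +/- members. Ebf1 stood at 633 CPM in Prm2 -/- and 629 CPM in Prm2 +/- members, Nr2f2 (COUP-TFII) at 299.8 and 306 CPM and Tcf4 at 311 and 289.9 CPM. Steroidogenic and stromal progenitor genes, listed together, stood at 1010.4 CPM in Prm2 -/- and 1168 CPM in Prm2 +/- members and cell cycle genes at 983 and 969 CPM. The small ratios of collagen folding (-0.01), transcription factor (-0.04) and spermatid marker genes (-0.02) would turn positive with spermatid-enriched genes out of the total, which adds 0.15. The summed ratio of dissociation genes (-0.15) would be near 0. The upper bounds of basement membrane (-0.06), TGF-beta and BMP (-0.08) and complement genes (-0.13) would rise above 0, so their intervals would include 0. The spermatid marker list includes Prm2 (-9.81), which lowers its summed ratio. Of its 12 genes with at least 100 UMIs, 9 had a ratio above 0 and 3 below 0, with a median of 0.20.

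**Figure D5:**
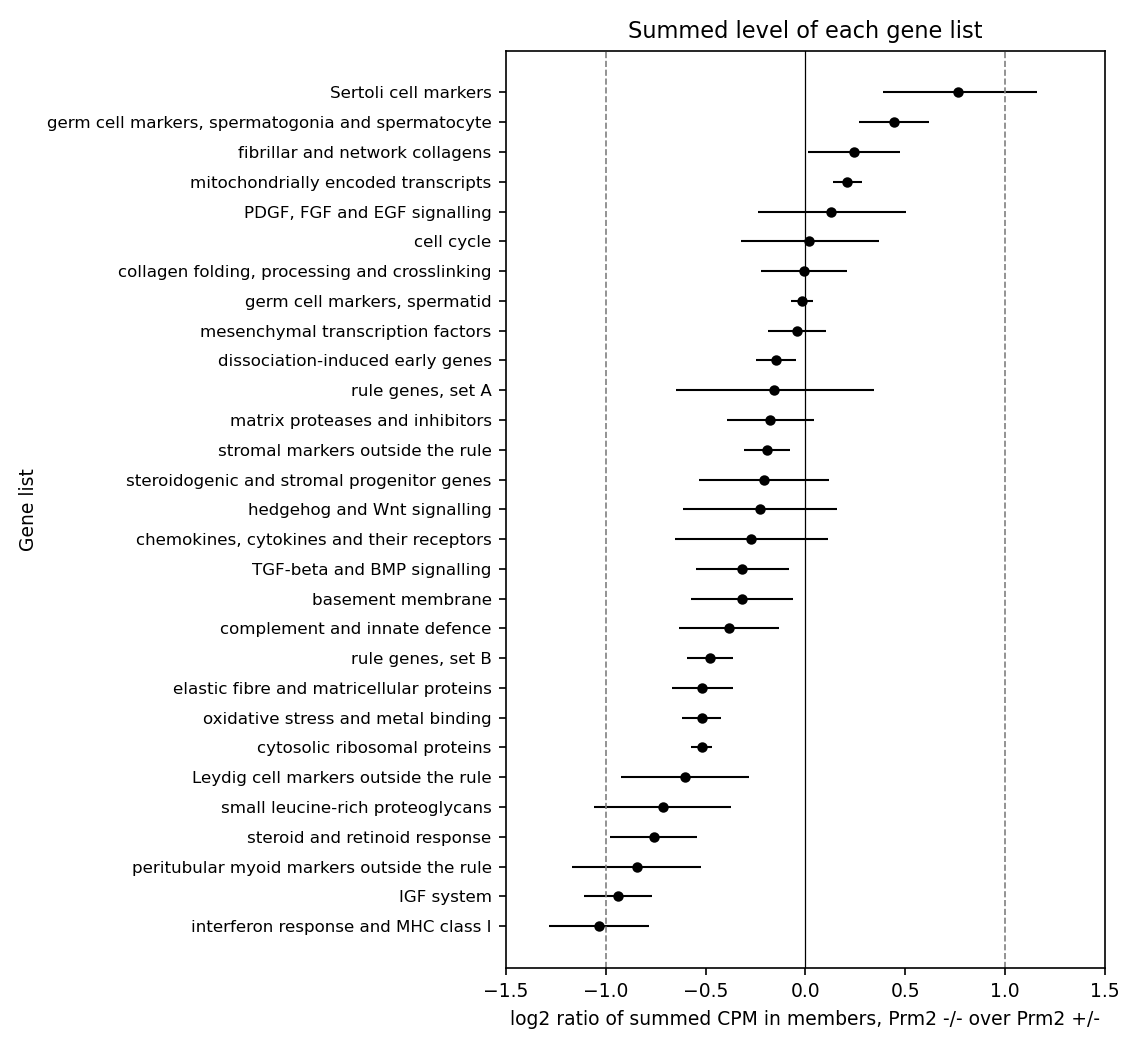
Log2 ratio of the summed CPM of each gene list with at least 100 UMIs and a UMI in both libraries, Prm2 -/- over Prm2 +/- members, with exact intervals for counting error. Dashed lines mark 2-fold. Interferon response and MHC class I (-1.04) is the lowest, and Sertoli cell markers (0.77) are the highest of the lists drawn. Red blood cell markers, with 0 UMIs in Prm2 +/- members, are not drawn. The spermatid marker list includes Prm2.

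Of the 10 highest named ratios in Prm2 -/- members, 9 belonged to spermatid-enriched genes. Ybx2, an RNA-binding protein that stores mRNA in spermatids, stood at 816 CPM in Prm2 -/- and 215 CPM in Prm2 +/- members (1.92, 1.31 to 2.58). Other barcodes of the Prm2 -/- library held 1184 CPM of it and those of the Prm2 +/- library 618 CPM. Sord, sorbitol dehydrogenase, stood at 1.51, Cabs1, a calcium-binding spermatid protein, at 1.49, Dnajb3, a testis chaperone, at 1.63, and Phkg2, the testis subunit of phosphorylase kinase, at 1.45. Nupr1l (1.76), Atl3, which shapes the endoplasmic reticulum (1.74), Spata18, a mitochondrial quality control gene (1.42), and Ube2k, a ubiquitin-conjugating enzyme (1.39), completed them. Ybx2 and Sord were past 2-fold in all 13 other settings, and Ube2k in 8.

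Hbb-bs, a beta globin gene, was at least 24.6-fold higher in Prm2 -/- members against a floor of 3 counts, with 110 UMIs against 0 in Prm2 +/- members. A single Prm2 -/- member held 150 of the 154 hemoglobin UMIs, 29.9% of its own UMIs, and without that member 27 genes were at least 2-fold higher. Cmss1 (261 CPM in Prm2 -/- and 2169.9 CPM in Prm2 +/- members, -3.06) was also lower in other barcodes, at 254 CPM in the Prm2 -/- and 881 CPM in the Prm2 +/- library.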

How the data were processed

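The deposited files hold raw UMI counts per gene and cell barcode for 32285 genes, which the authors made with Cell Ranger (version 7.1.0 per the file headers). Seurat 4.1.0 and the mm10 build are named in the submitters' processing notes, without a role. No deposited barcode was under 500 UMIs. Members and gene lists were chosen with earlier results of these data known. Counts of all members in a library were added up and given as CPM. Intervals are exact: Poisson for sums, Clopper-Pearson for shares and conditional binomial for ratios, at 95%, and 0 counts take a floor of 3. No test was run, since each genotype has 1 library.

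The text names the rule genes, the 10 highest and 10 lowest ratios among genes with at least 100 UMIs (mitochondrial, predicted and clone-named genes and pseudogenes left out), the 20 genes highest over other barcodes, and per list up to 5 genes with the most UMIs and up to 4 with the largest ratios, besides markers. Other listed genes are summed. For shares, members were thinned to 812 UMIs, the 20th percentile of Prm2 -/- members. Scrublet (scanpy 1.11.5) marked doublets, which were kept in the main values. TMM factors came from edgeR 4.0.16. Gene positions are GENCODE M21 on mm10. Python 3.11.15, numpy 2.4.6, scipy 1.17.1 and pandas 2.3.3 were used, and the interval code was tested on simulated data. Alternatives covered the member rule, depth, doublets, scaling and the minimum of UMIs per gene.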

Additional observations from a re-analysis of the deposited data

How the results depend on the processing

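No paired analysis was possible because each genotype has 1 library and the labels carry no replicate numbers. The 106 Prm2 -/- members became 66, and their share of 0.463% became 0.288%, when the rule genes had to reach 5 UMIs and 0.5%. The Prm2 -/- share was 0.376% with Scrublet's calls removed, 0.332% with at least 1000 UMIs per barcode and 0.376% without members above 35% spermatid-enriched UMIs, while the Prm2 +/- number and share stayed within counting error of 72 and 0.473% in the settings run. Against 28 genes higher and 22 lower, the counts were 10 and 14 with Scrublet's calls removed, 78 and 59 with a minimum of 50 UMIs per gene, and 5 and 11 with a minimum of 200. Genes at least 2-fold higher numbered 5 with 5 rule UMIs and 0.5%, 10 without members above 35% spermatid-enriched UMIs, and 6 with spermatid-enriched genes left out. The split of higher against lower calls was 40 to 19 when those genes left the total but were still counted. The cause of these changes was not tested. The number of genes compared changed too, from 431 to 1108 and 176 with the other minimums and 260 without spermatid-enriched genes. It was 325 with Scrublet's calls removed, 244 with 5 rule UMIs and 0.5%, and 314 without members above 35% spermatid-enriched UMIs. With all members thinned to 1 depth, 17 of the 28 higher and 19 of the 22 lower genes were still called. The settings without members above 35% spermatid-enriched UMIs or above 1% hemoglobin, without the top member of each gene, and with spermatid-enriched genes out of the total but counted were added after seeing the data. Depth limits single genes: at 180122 and 120742 UMIs, 431 genes reached 100 UMIs.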

Other observations

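Igfbp5, another carrier of insulin-like growth factors, had 27 UMIs in 8 of 106 Prm2 -/- members and 0 in 72 Prm2 +/- members, where 0 of 72 allows a share of up to 4.99%. It was at least 6.03-fold higher against a floor of 3 counts, and 1 member held 9 of the 27 UMIs. Dlk1, a Notch ligand relative that marks stromal and steroidogenic progenitors, had 9 UMIs in 5 Prm2 -/- members and 0 in Prm2 +/- members. Both genes lie under the minimum of 100 UMIs and were chosen after their values were seen.

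Members with Ly6a (Sca-1, a surface protein of fibroblast progenitors in several mouse tissues) also held Igfbp6 in 24 of 27 cases in the Prm2 -/- library and in 18 of 19 in the Prm2 +/- library. Members without a Ly6a UMI held it in 43 of 79 and 45 of 53 cases. Members are cells of 1 library each and differ in depth, so these are counts and not a test. Among contractile genes of the rule, Myl9 stood at 99.9 CPM in Prm2 -/- and 289.9 CPM in Prm2 +/- members. Myh11 had 12 UMIs in Prm2 -/- members and 0 in Prm2 +/- members, and Acta2 had 18 and 5. Actg2 was spermatid-enriched, at 117 CPM in Prm2 -/- and 82.8 CPM in Prm2 +/- members against 377 and 405 CPM in spermatid-marker barcodes. The Prm2 -/- myoid barcodes held 315 CPM of Actg2. All 6 contractile genes of the rule summed to 461 CPM in Prm2 -/- and 513 CPM in Prm2 +/- members (log2 -0.16, -0.65 to 0.34). Their values took part in the choice of members, so nothing is read from them.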
